A study of Mus musculus with 12 samples.

Results

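The organ difference in RNA, spleen against lymph node, was compared between regulatory T cells (Treg) and conventional T cells (Tcon) of the mouse. All 12 of the 12 libraries of the series entered this comparison, because every library carries a cell type and an organ: 6 are Treg and 6 are Tcon, and of each 6, 3 came from lymph node and 3 from spleen. The mice were B6.Cg-Foxp3tm2Tch/J (FOXP3-IRES-GFP), so that cells transcribing Foxp3 also make GFP and every group shares this reporter allele. Treg were labelled CD4+CD25+FOXP3+ cells and Tcon naive primary CD4+ T cells. Mice had been given vehicle, or 25 mg/kg of the stapled alpha-helical peptide SAH-FOXP3(229-259)C (SAH), by intraperitoneal injection once a day for 2 days. In each cell type libraries 1 (lymph node) and 4 (spleen) were vehicle, with DMSO in their titles, and libraries 2 and 3 (lymph node) and 5 and 6 (spleen) were SAH. No age of the mice is given in the labels. The labels do not say whether libraries came from separate mice or whether a mouse gave both organs. All p-values here therefore describe spread among these libraries, and that spread may be technical.

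T cells settle in lymph node and spleen from the blood and leave again for it. Lymph nodes are entered through high endothelial vessels with the help of CCR7 and drain tissue lymph, whereas the spleen filters blood and holds red pulp rich in macrophages, plasma cells and red cells. Treg restrain immune responses, depend on FOXP3 and on interleukin-2, and circulate as resting or as activated cells. Tcon in these organs are mostly resting, with a minor share of memory and innate-like T cells. An organ difference can therefore be shared by both cell types or belong to 1 of them, and the second case needs a test of the difference between the 2 differences.

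Values are CPM (the read counts of a gene per library size, as the authors scaled them), and every difference below is spleen minus lymph node on the log2(CPM + 1) scale, on which 1 unit is a doubling of CPM + 1 and low genes change less than they do in CPM. The fit was limma over 9784 genes listed in both cell types, with treatment as a term within each cell type, and a gene was called at a Benjamini-Hochberg adjusted p below 0.05. The interaction is the organ difference in Treg minus that in Tcon. Read depth, estimated from the smallest CPM steps, was 36442420 to 48888678 reads per library, and libraries of a cell type correlated at 0.986 to 0.997. Defining markers matched the labels: Foxp3, the lineage factor of Treg, lay between 655 and 726 CPM in the Treg libraries and between 19.6 and 24.9 CPM in Tcon, and Cd4 lay between 696 and 1018 CPM over all libraries. The Treg and Tcon tables had been normalized separately, so levels of the 2 cell types are set side by side here and were not tested against each other.

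Spleen and lymph node differed in 1154 genes in Treg (11.8% of those tested), of which 661 (6.76%) were higher and 493 (5.04%) lower in spleen. In Tcon 610 genes differed (6.23%), 403 (4.12%) higher and 207 (2.12%) lower. The organ difference itself differed between the cell types in 143 genes (1.46%): it was more positive in Treg in 36 (0.368%) and more positive in Tcon in 107 (1.09%). A total of 307 genes changed in the same direction in both (3.14%), 203 (2.07%) higher and 104 (1.06%) lower in spleen, and 11 changed in opposite directions (0.112%). Another 65 genes were called in Treg and in the interaction but not in Tcon (Treg only, 0.664%), and 46 were called in Tcon and in the interaction but not in Treg (Tcon only, 0.47%). The remaining calls fell in 1 cell type without a called interaction, 771 genes in Treg and 246 in Tcon, and for these a difference between cell types was not shown. Across the 9784 genes the 2 organ differences had a Pearson correlation of 0.637 and a Spearman correlation of 0.422, which describes genes, not replicates. No gene had a called three-way term of cell type, organ and SAH in limma, with 151 genes at an unadjusted p below 0.05 and 4 residual degrees of freedom.

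**Figure D1:**
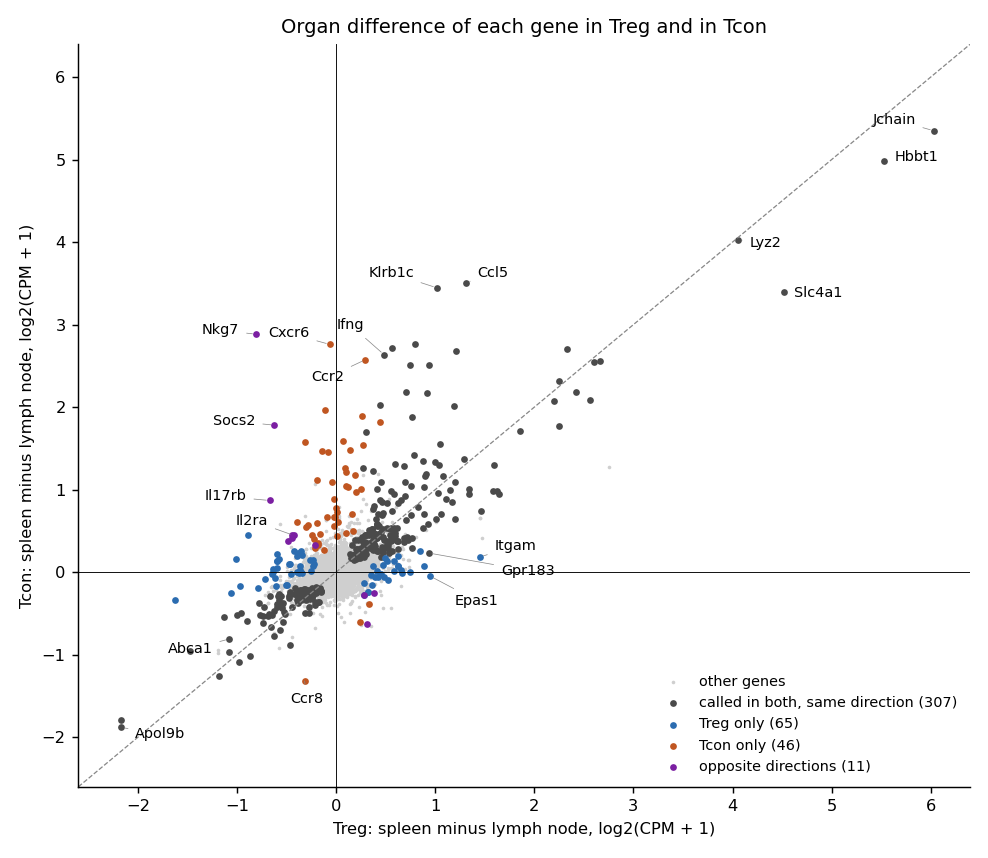
Each point is 1 of 9784 genes, placed by its organ difference (spleen minus lymph node, log2(CPM + 1)) in Treg on the x axis and in Tcon on the y axis, with the dashed line marking equal differences. Black points near the line are genes that changed in the same direction in both (307), and the purple points off the line include Nkg7 and Socs2, which fell in spleen Treg and rose in spleen Tcon.

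Of the 307 shared genes, 230 had a 95% interval of the difference between cell types inside a factor of 1.5 either way. In 21 shared genes the size differed by the interaction test: 18 rose more in spleen Tcon, Gpr183 and Sec14l1 rose more in spleen Treg, and Rcan3 fell more in spleen Treg. Sec14l1 and Rcan3 were outside the rule for named genes and are named for their low number. More than 2-fold changes in both cell types were found in 27 genes, 24 higher and 3 lower in spleen.

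Taking each library number as a block (the Treg and the Tcon library of a number deviated together) gave 703 called interactions (7.19%), 368 more positive in Treg and 335 more positive in Tcon, and these contained all 143. Rescaling every library to 1 total turned the Treg split to 518 higher and 666 lower and the Tcon split to 360 and 260, with 33 and 113 interactions. Single libraries also moved the counts. Without library 1 or 4 of a cell type, its lone vehicle library is fitted exactly by the treatment term. Both removals then give the same organ difference, that of the SAH libraries, so the 12 fits are not 12 separate checks. The interactions numbered 85, 79, 94 and 87 without Treg library 1, 2, 3 or 4, and 88 without Tcon library 3, but 287 without Tcon library 2. The Treg count was 504, 622 and 506 without Treg library 1, 2 or 4, the Tcon count was 352 and 354 without Tcon library 1 or 4, and the shared count was 200, 203, 197 and 198 without library 1 or 4 of Treg or of Tcon. Opposite genes numbered 7 without Treg library 1 or 2 or Tcon library 1, and 31 without Tcon library 2. Treg only genes numbered 29, 28, 42 and 29 without Treg library 1, 2, 3 or 4, 119 without Tcon library 2, and 35 and 40 without Tcon library 3 or 5. Tcon only genes numbered 29 without Treg library 3, 94 without Tcon library 2 and 27 without Tcon library 3. Among 59 named genes with a called interaction, 39 kept the call in each of the 12 fits that left out 1 library. For other calls given below, the libraries whose removal ended the call are named at the end of the paragraph.

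By gene list, the medians of the organ difference lay near 0 over all genes tested (-0.0037 in Treg and -0.0017 in Tcon). Among the 21 lists other than markers of other cell types, effector and activated T cell genes had the highest medians, 0.33 in Treg and 0.79 in Tcon over 26 measured genes. The cholesterol synthesis list was higher in spleen by nearly the same median in both, 0.30 and 0.27. Lists for the cell cycle (-0.11 and 0.14), the Treg signature (-0.08 and 0.15) and cytosolic ribosomal proteins (-0.09 and 0.05) had medians below 0 in Treg and above 0 in Tcon. Medians below 0 in both were found for the interferon response (-0.16 and -0.20) and for TGF-beta and retinoic acid response genes (-0.18 and -0.15). Of the 13 genes encoded in mitochondria, 0 were called by limma in any of the 3 comparisons, with 1 in Treg, 1 in Tcon and 0 in the interaction at an unadjusted p below 0.05.

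**Figure D2:**
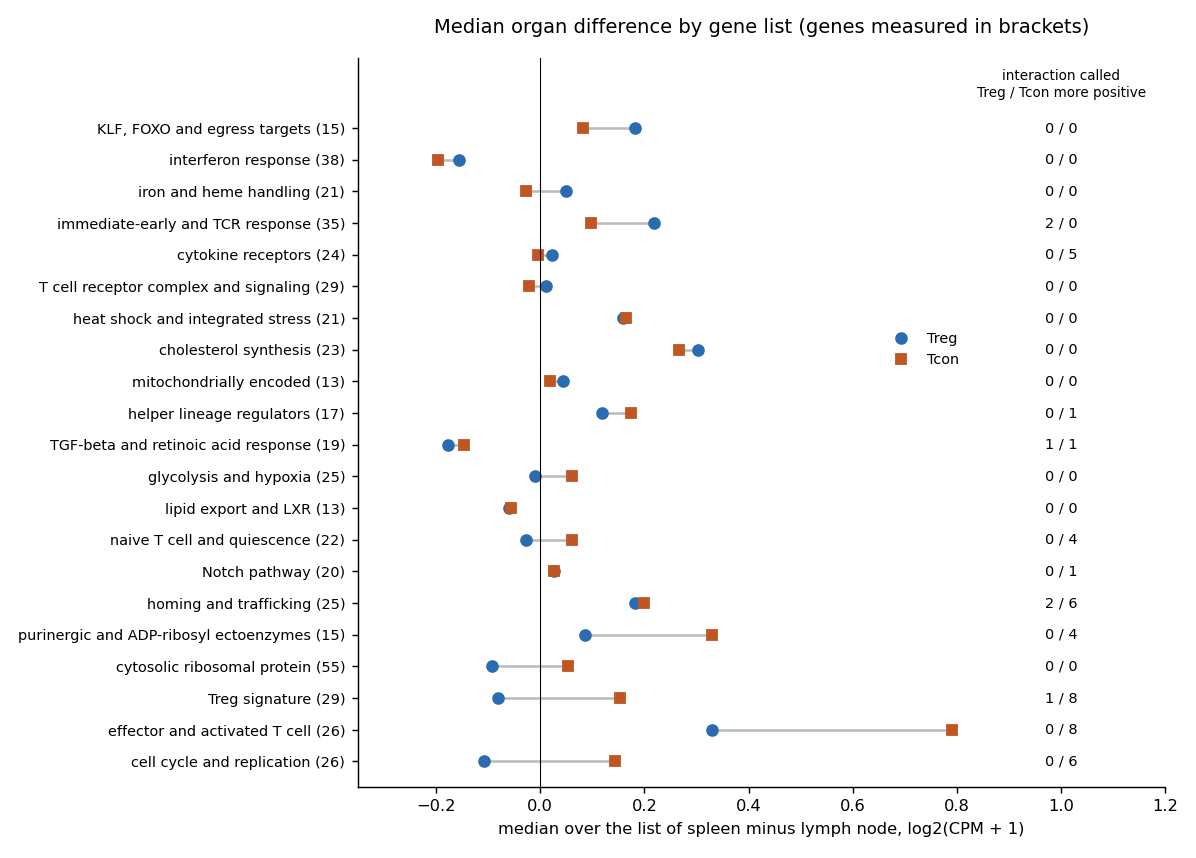
Rows are the 21 gene lists with the number of measured genes in brackets. The x axis gives the list's median of spleen minus lymph node in log2(CPM + 1) for Treg (circles) and Tcon (squares), and the right column counts called interactions, more positive in Treg / in Tcon. The widest gap is that of the effector and activated list, from 0.33 in Treg to 0.79 in Tcon.

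Effector genes rose in spleen Tcon, several of them more than in spleen Treg. Of 26 effector and activated T cell genes, 18 rose in spleen Tcon against 4.12% of all genes, 12 rose and 2 fell in spleen Treg against 6.76% and 5.04%, and 12 rose in both. The interaction was called in 8, each more positive in Tcon, against 1.09%. Ifng, the gene of interferon gamma, was at 3.07, 4.29 and 3.47 CPM in lymph node Tcon and at 30.4, 28.7 and 23.9 CPM in spleen Tcon. In Treg it was at 8.53, 9.14 and 9.86 CPM in lymph node and 13.5, 12.2 and 14 CPM in spleen. The organs did not overlap in either cell type, and the rise was 2.64 (standard error 0.11, adjusted p = 3.2e-09) in Tcon and 0.48 (standard error 0.11, adjusted p = 0.012) in Treg, with an interaction of -2.15 (standard error 0.16, adjusted p = 3.2e-06). Ifng was not called in Treg without Treg library 1, 2 or 4 (0.42 to 0.47).

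Tbx21, the T-bet gene that drives interferon gamma production, went from 1.1–1.73 to 10.6–14.9 CPM in Tcon and from 2.85–4.03 to 5.19–7.84 CPM in Treg. Its interaction was -1.77 (standard error 0.22, adjusted p = 3.5e-04). Ccl5, a chemokine of memory and cytotoxic T cells, went from 0.400–2.18 to 20.1–23.7 CPM in Tcon and from 2.38–3.0 to 7.41–8.44 CPM in Treg, and here too both cell types rose and Tcon rose more (interaction -2.19, standard error 0.28, adjusted p = 5.8e-04). Mmp9, a secreted matrix protease, was at most 0.213 CPM in lymph node Tcon and at 3.92–10.7 CPM in spleen Tcon, and went from 5.30–7.16 to 7.86–12.7 CPM in Treg (0.56), with an interaction of -2.15 (standard error 0.24, adjusted p = 1.6e-04). A gene was listed with at least 1 CPM in at least 3 libraries. Mmp9 was thus listed in Tcon through spleen alone, which fixed its order there. Il18rap, a subunit of the interleukin-18 receptor, rose by 2.19 in Tcon and 0.71 in Treg (interaction -1.48, standard error 0.18, adjusted p = 2.5e-04). Serpina3g, an intracellular protease inhibitor with close paralogs that may share reads, rose by 2.77 in Tcon and 0.79 in Treg (interaction -1.97, standard error 0.15, adjusted p = 6.7e-06). Tnfsf14, the LIGHT cytokine gene of activated T cells, went from 1.47–2.09 to 6.20–9.12 CPM in Tcon, against 6.08–7.44 and 4.95–5.82 CPM in Treg (interaction -1.89, standard error 0.19, adjusted p = 6.4e-05). Mmp9 was not called in Treg without Treg library 1, 2, 3, 4, 5 or 6 or Tcon library 3 (0.47 to 0.67).

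Receptors that guide T cells into inflamed tissue were also among the genes more positive in Tcon. Of 25 homing and trafficking genes, 11 rose and 1 fell in spleen Tcon, against 4.12% and 2.12% of all genes, and 7 rose in spleen Treg, against 6.76% (4 without Treg library 1, 2 or 4). The interaction was called in 6 more positive in Tcon, against 1.09%, and in 2 more positive in Treg, against 0.368% (1 to 3 when 1 library was left out). With the library number as a block these were 11 and 5, against 3.42% and 3.76%. Cxcr6, a chemokine receptor of effector memory and liver-homing T cells, was at 3.49, 2.89 and 2.63 CPM in lymph node Tcon and 38.4, 19.1 and 23.9 CPM in spleen Tcon. In Treg it was at 3.03, 4.18 and 3.73 CPM and 4.08, 3.10 and 3.15 CPM, and these overlapped. The rise was 2.76 (standard error 0.14, adjusted p = 1.1e-08) in Tcon, the Treg difference was -0.064 (standard error 0.14, adjusted p = 0.82), and the interaction was -2.82 (standard error 0.20, adjusted p = 2.5e-06). Ccr2, a receptor for inflammatory chemokines, was Tcon only as well, at 2.57 in Tcon and an interaction of -2.28 (standard error 0.23, adjusted p = 6.1e-05). Cxcr3, a receptor of T-bet-expressing cells, rose in both, from 2.04–2.89 to 12.2–18.4 CPM in Tcon and from 19.7–23.5 to 39.1–44.2 CPM in Treg, with an interaction of -1.25 (standard error 0.16, adjusted p = 4.1e-04). Itgb1, the integrin beta 1 chain, rose by 0.89 in Tcon, whereas its Treg libraries overlapped (286–338 and 277–363 CPM). Ccr9, the gut-homing receptor, rose by 1.19 in Tcon and measured 0.42 in Treg, a difference that was not called (adjusted p = 0.2) and was called with the block (adjusted p = 0.0013).

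**Figure D3:**
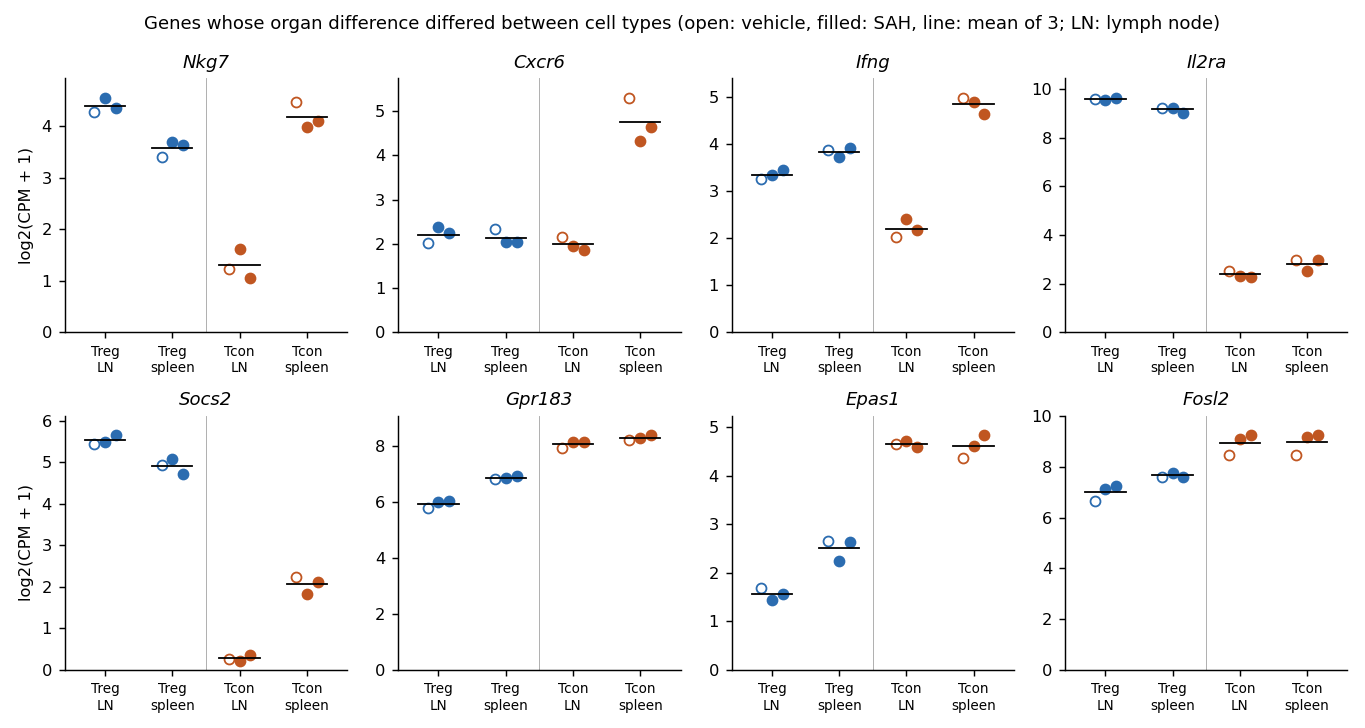
Values of 8 genes in log2(CPM + 1) (y axis) in each library of Treg (blue) and Tcon (orange) by organ (x axis), open for vehicle, filled for SAH, with the mean of 3 as a line. In Cxcr6 the spleen Tcon libraries lie at 19.1–38.4 CPM and every other library lies below 5 CPM. In Gpr183, Epas1 and Fosl2 the organs separate in Treg.

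Markers of CD8, natural killer and innate-like T cells moved with these genes. Of 23 such markers 14 were listed in the Tcon table. Of the 14, 13 were higher in every spleen Tcon library than in every lymph node one, as were 10% of all genes of that table. Listed genes have at least 1 CPM in at least 3 libraries, and each organ had 3. A marker below 1 CPM in every lymph node library, such as Klrb1c, was therefore listed through spleen alone, which fixed its order. The summed level of the listed markers was 115 to 133 CPM in lymph node Tcon and 278 to 365 CPM in spleen Tcon. In Treg, with 9 listed, it was 1045 to 1173 CPM in lymph node and 1051 to 1109 CPM in spleen, most of it from Il2rb. Of these 9, 4 were higher in every spleen Treg library, against 16.8% of all genes of that table. By limma 4 rose and 1 fell in spleen Treg, against 6.76% and 5.04% of all genes tested, and those 4 rose in Tcon too. Nkg7, Klrb1c, Ccl5, Il2rb, Cd160 and Eomes belong to this list. Klrb1c, the NK1.1 receptor gene, was at 0.480, 0.664 and 0.332 CPM in lymph node Tcon and 23.6, 10.9 and 13.4 CPM in spleen Tcon, with a smaller rise in Treg (1.02, interaction -2.43, standard error 0.24, adjusted p = 6.1e-05). Cd8b1, the CD8 beta chain gene, did not follow: it was at 13.8–14.4 CPM in lymph node Tcon and 13.5–14.3 CPM in spleen Tcon. In such bulk samples more cells of a type and more RNA per cell cannot be told apart, and the part of such cells in the results on Tcon was not tested.

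Several genes that mark Treg were higher in spleen Tcon than in lymph node Tcon, and some of them were lower in spleen Treg. Of 29 measured Treg signature genes, 11 rose in spleen Tcon, against 4.12% of all genes (5, 7 and 5 without Tcon library 1, 3 or 4), and 6 fell in spleen Treg, against 5.04%. In Tcon 2 fell, against 2.12% of all genes, and in Treg 1 rose, against 6.76%. These counts became 1 to 3 and 0 to 4 when 1 library was left out. The interaction was called in 8 more positive in Tcon, against 1.09%, and in 1 more positive in Treg, against 0.368%, and with the block in 13 and 3, against 3.42% and 3.76%. Without 1 library the 8 became 4 (Treg library 2, 3 or 6) or 5 (Tcon library 1, 3, 4 or 5). Foxp3 itself did not pass in either cell type: it was at 682, 697 and 726 CPM in lymph node Treg and 669, 655 and 715 CPM in spleen Treg, and at 21.8, 23.5 and 24.9 CPM in lymph node Tcon and 19.6, 21.1 and 22.6 CPM in spleen Tcon. Its interaction was 0.097 (standard error 0.07, adjusted p = 0.64), with a 95% interval from -0.052 to 0.25.

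Il2ra, the gene of CD25 and of the interleukin-2 receptor alpha chain, was at 763, 742 and 788 CPM in lymph node Treg and 589, 597 and 520.4 CPM in spleen Treg. In Tcon it was at 4.80, 3.98 and 3.85 CPM in lymph node and 6.90, 4.66 and 6.94 CPM in spleen. The Treg organs did not overlap, and 1 spleen Tcon library lay below the highest lymph node one. Il2ra fell in spleen Treg by 0.43 (standard error 0.093, adjusted p = 0.0082), rose in spleen Tcon by 0.45 (standard error 0.093, adjusted p = 0.0096), and had an interaction of -0.87 (standard error 0.13, adjusted p = 0.0024). CD25 protein was part of the gate that defined Treg. Socs2, an inhibitor of cytokine signaling induced by the STAT5 pathway below that receptor, was at 42.3, 44.0 and 49.0 CPM in lymph node Treg and 29.3, 32.5 and 25.4 CPM in spleen Treg. In Tcon it was at 0.187, 0.166 and 0.281 CPM in lymph node and 3.73, 2.54 and 3.30 CPM in spleen. Socs2 fell in Treg by 0.62 and rose in Tcon by 1.78, and the interaction was -2.40 (standard error 0.16, adjusted p = 1.7e-06). The organs did not overlap in either cell type. In Tcon, however, Socs2 was below 1 CPM in every lymph node library and so was listed through spleen alone, which fixed that order. Il2ra was not called in Tcon without Tcon library 1 or 4 (0.45).

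Il2rb, the beta chain shared by the interleukin-2 and interleukin-15 receptors, was at 37.0–48.3 CPM in lymph node Tcon and 105–127 CPM in spleen Tcon. In Treg it ranged over 985–1111 CPM in lymph node and 987–1047 CPM in spleen, which overlapped, and the interaction was -1.54 (standard error 0.12, adjusted p = 7.1e-06). Entpd1, the gene of the ectoenzyme CD39 that degrades extracellular ATP, was at most 0.712 CPM in lymph node Tcon and at 3.64, 2.97 and 2.95 CPM in spleen Tcon, against 39.4–44.1 and 36.9–37.4 CPM in Treg (interaction -1.61, standard error 0.14, adjusted p = 1.2e-05). Entpd1 too was listed in Tcon through spleen alone, which fixed its order there. Nt5e, the CD73 gene that acts after CD39, had an interaction of -0.63 (standard error 0.13, adjusted p = 0.025), Plagl1, a zinc finger gene, of -0.86 (standard error 0.17, adjusted p = 0.022), Nrp1, the neuropilin 1 gene, of -1.0 (standard error 0.22, adjusted p = 0.037) and Cish, another STAT5 target, of -0.51 (standard error 0.11, adjusted p = 0.029). Ikzf2, the Helios gene, rose in Tcon by 0.68 and measured 0.026 in Treg, and this difference was called with the block alone (adjusted p = 0.16 without it and 8.7e-04 with it). In Treg the falls outside Il2ra and Socs2 were in Ikzf4, Gpr83, Capg and Dusp4, by 0.30 to 0.59. Nt5e lost its interaction call without Treg library 1, 2, 3, 4 or 6 or Tcon library 1, 3, 4 or 5 (-0.64 to -0.54). Plagl1 lost its interaction call without Treg library 2, 3 or 6 or Tcon library 5 (-0.86 to -0.75). Nrp1 lost its interaction call without Treg library 1, 2, 3, 4, 5 or 6 or Tcon library 1, 3 or 4 (-1.05 to -0.91). Cish lost its interaction call without Treg library 2, 3, 5 or 6 or Tcon library 1, 3, 4 or 5 (-0.51 to -0.43). Ikzf2 was not called in Tcon without Tcon library 3 (0.57). Gpr83 was not called in Treg without Treg library 1, 3 or 4 (-0.29 to -0.27).

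Several ectoenzymes and purine receptors rose in spleen Tcon, and some of them rose in spleen Treg too. Of 15 measured genes 8 rose in spleen Tcon, against 4.12% of all genes (5 without Tcon library 1 or 4), and 5 rose and 1 fell in spleen Treg, against 6.76% and 5.04%. Called interactions numbered 4, all more positive in Tcon, against 1.09%: Entpd1, Nt5e, P2rx7 and Cd38. P2rx7, the ATP-gated channel, rose from 15.1–23.8 to 41.2–54.2 CPM in Tcon and from 178–195 to 229–246 CPM in Treg (interaction -0.86, standard error 0.10, adjusted p = 2.5e-04). Cd38, an NAD-consuming ectoenzyme, rose in Tcon by 1.26 (interaction -1.17, standard error 0.18, adjusted p = 0.0024). Art2a and Art2b, a pair of similar genes for the ADP-ribosyltransferases that act on P2RX7 and may share reads, rose in both, Art2b by 0.89 in Treg and 0.71 in Tcon.

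Many genes of the Tcon only class were low in lymph node Tcon and had higher means in Treg. Of the 43 that were higher in spleen, 41 had a higher mean in Treg than in Tcon, against 58.9% of all genes tested. In 19 of them it was more than 5-fold higher, and 22 of the 43 were below 5 CPM in lymph node Tcon. In 38 the spleen Tcon mean was still below the lymph node Treg mean. The rise in CPM was larger in Tcon in 38 of the 43, and the Treg estimate was below 0 in 24, against 51.3% of all genes. For the counts of 19, 22 and 38 no share over all genes was taken, so they describe the class and do not set it apart. Coro2a, a coronin family gene, was an example: it was at 1.79, 2.94 and 1.99 CPM in lymph node Tcon and 11.6, 10.7 and 12.5 CPM in spleen Tcon, and at 320.2–345 and 303–317 CPM in Treg (interaction -2.08, standard error 0.13, adjusted p = 1.1e-06). Over all 107 genes more positive in Tcon, 95 had a higher mean in Treg, against 58.9% of all genes tested. These means come from tables normalized separately.

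Opposite changes were led by Nkg7, a granule protein gene of natural killer and cytotoxic cells (chromosome 7, 43437073 to 43438249 in GRCm38). It was at 18.3, 22.4 and 19.4 CPM in lymph node Treg and 9.62, 12.0 and 11.4 CPM in spleen Treg, and at 1.36, 2.09 and 1.07 CPM in lymph node Tcon and 21.2, 14.8 and 16.3 CPM in spleen Tcon. Neither cell type overlapped between organs. Nkg7 fell by 0.81 (standard error 0.14, adjusted p = 0.0014) in Treg and rose by 2.88 (standard error 0.14, adjusted p = 6.2e-09) in Tcon, and its interaction of -3.69 (standard error 0.19, adjusted p = 1.7e-07) was the lowest among the named genes. Il17rb, a receptor subunit for interleukin-25, fell in Treg from 6.38–7.01 to 3.50–4.08 CPM and rose in Tcon from 1.74–2.91 to 3.82–6.59 CPM (interaction -1.54, standard error 0.15, adjusted p = 4.3e-05). Ncf1, an NADPH oxidase subunit, Endod1, a nuclease-domain gene, and Ston1, an endocytic adaptor, also fell in Treg and rose in Tcon, with interactions of -0.89 (standard error 0.13, adjusted p = 0.002), -0.86 (standard error 0.11, adjusted p = 7.6e-04) and -0.87 (standard error 0.14, adjusted p = 0.0053). They fell by 0.44, 0.45 and 0.49 in Treg and rose by 0.45, 0.42 and 0.38 in Tcon. Ston1 was not called in Treg without Treg library 1 or 4 (-0.42). Ncf1 was not called in Tcon without Tcon library 1 or 4 (0.44). Ston1 was not called in Tcon without Treg library 1, 2 or 4 or Tcon library 1, 3, 4, 5 or 6 (0.31 to 0.43).

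Hpgds, the hematopoietic prostaglandin D synthase, and Hs3st3b1, a heparan sulfate sulfotransferase, went the other way. Hpgds fell in Tcon from 4.41–4.95 to 2.49–2.92 CPM, and in Treg lay at 6.79, 5.51 and 5.53 CPM in lymph node and 9.50, 6.76 and 6.81 CPM in spleen, which overlapped. Its interaction was 0.94 (standard error 0.13, adjusted p = 0.0012), with a Treg difference of 0.31 (adjusted p = 0.041). Hs3st3b1 rose in Treg from 9.11–10.8 to 11.8–14 CPM and fell in Tcon from 132–161 to 113–125 CPM (interaction 0.63, standard error 0.095, adjusted p = 0.0023), a Tcon fall of 0.25. Amd1, an enzyme of polyamine synthesis whose reads a near-identical copy may share, measured 0.28 in Treg and -0.28 in Tcon, with an interaction of 0.56 (standard error 0.11, adjusted p = 0.015). Hpgds was not called in Treg without Treg library 1, 2, 3, 4, 5 or 6 or Tcon library 1 (0.26 to 0.33). Hs3st3b1 was not called in Tcon without Treg library 1, 3, 4 or 5 or Tcon library 1, 3, 4, 5 or 6 (-0.26 to -0.17). Amd1 was not called in Treg without Treg library 1, 2 or 4 (0.16 to 0.28). Amd1 was not called in Tcon without Treg library 2 or 5 or Tcon library 1, 3, 4, 5 or 6 (-0.34 to -0.20). Amd1 lost its interaction call without Treg library 1, 2 or 4 (0.44 to 0.55).

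Some cell cycle genes fell in spleen Treg and others rose in spleen Tcon. Of 26 measured, 9 fell in spleen Treg, against 5.04% of all genes, and 5 other genes rose in spleen Tcon, against 4.12%. The estimate was below 0 in 20 of 26 in Treg, against 51.3% of all genes, and above 0 in 22 of 26 in Tcon, against 49.4%. The interaction was called in 6, all more positive in Tcon (1.09% of all genes), and in 13 with the block, all in that direction (3.42%). Stmn1, the stathmin gene that regulates microtubules and is high in dividing cells, was at 21.3, 25.2 and 26.3 CPM in lymph node Treg and 16, 15.8 and 15.4 CPM in spleen Treg. In Tcon it was at 26.5, 24.9 and 25.8 CPM in lymph node and 30.8, 29.1 and 30.1 CPM in spleen. Neither overlapped. The Treg fall was 0.59 (standard error 0.067, adjusted p = 5.4e-05), the Tcon difference of 0.21 was not called (adjusted p = 0.079), and the interaction was -0.81 (standard error 0.095, adjusted p = 2.5e-04).

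Uhrf1, which maintains DNA methylation at replication, fell from 29.1–33.4 to 18.9–21.5 CPM in Treg (interaction -0.65, standard error 0.14, adjusted p = 0.032). E2f1, a transcription factor of S-phase entry, fell by 0.60 in Treg (interaction -0.74, standard error 0.15, adjusted p = 0.023), and the replicative helicase subunit Mcm5 fell by 0.39 (interaction -0.40, standard error 0.087, adjusted p = 0.036). In Tcon the risers were Mki67, Ccna2, Tk1, E2f2 and Kif11, and the interaction was called for the spindle motor Kif11 (-0.69 (standard error 0.12, adjusted p = 0.0065)) and for E2f2 (-0.39 (standard error 0.091, adjusted p = 0.047)). Mki67, the proliferation marker, was at 16.9, 15.9 and 12.4 CPM in lymph node Tcon and 22.9, 19.6 and 42.0 CPM in spleen Tcon, with library 6 well above the others. Leaving out 1 library moved the counts: 5 genes fell in Treg without Treg library 1, 2 or 4, and 3, 2 and 3 rose in Tcon without Tcon library 2, 3 or 6. The interactions were 2 without Treg library 1, 2 or 3 or Tcon library 1 or 4, and 3 without Treg library 4 or 5 or Tcon library 3 or 6. Of 55 cytosolic ribosomal protein genes, 3 were called in Treg, all lower in spleen, a share near the 5.04% of all genes (1 without Treg library 1, 2, 4 or 5, 6 without Tcon library 1 or 4 and 5 without Tcon library 2). This count depended on the scaling. It was 7 with every library rescaled to 1 total, beside 666 of all 9784 genes, and 12 with quantile normalization, beside 535. By limma 0 were called in Tcon and 0 in the interaction, with 2 and 15 at an unadjusted p below 0.05. With the block 10 interactions were called, 1 more positive in Treg and 9 in Tcon, against 3.76% and 3.42% of all genes. Estimates of the 55 ribosomal protein genes lay below 0 in 51 in Treg, against 51.3% of all genes, and above 0 in 47 in Tcon, against 49.4%. Uhrf1 lost its interaction call without Treg library 1, 2, 3, 5 or 6 or Tcon library 1, 3, 4 or 6 (-0.73 to -0.55). E2f1 lost its interaction call without Treg library 1, 2, 3, 4 or 5 or Tcon library 1, 4 or 6 (-0.77 to -0.67). Mcm5 lost its interaction call without Treg library 1, 2, 3, 4, 5 or 6 or Tcon library 1, 3, 4 or 5 (-0.44 to -0.35). E2f2 lost its interaction call without Treg library 1, 2, 3, 4 or 5 or Tcon library 1, 2, 3, 4, 5 or 6 (-0.43 to -0.34).

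**Figure D4:**
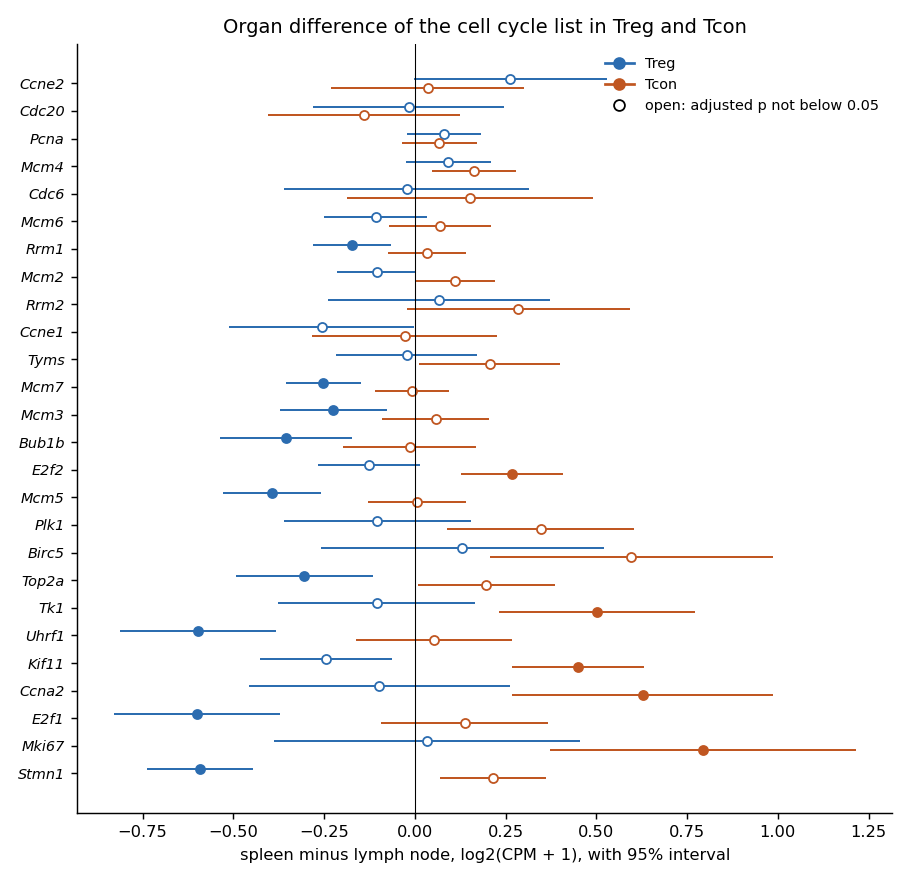
Organ difference in log2(CPM + 1) (x axis) with its 95% interval for the 26 measured cell cycle genes (y axis, ordered by interaction), in Treg (blue) and Tcon (orange). Filled points were called, and 9 filled Treg points lie left of 0 while 5 filled Tcon points lie right of it.

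The promoter of Mcm5 is shown because it carries an E2F motif, the letters TTTGGCGC on either strand, in the 250 bases before its start. Among promoters of all genes tested 0.859% held these letters, and 2 of 42 promoters (4.76%) of the Treg only genes lower in spleen did, those of Mcm5 and 1 other gene. The share was 6.25% (2 of 32) for genes more positive in Treg, 3.57% (4 of 112) for genes more positive in Tcon, which include those Treg only genes, and 0 of 93 for shared genes lower in spleen. A T-box motif, AGGTGTGA on either strand, was held by 0.704% of promoters of all genes tested, by 2 of 112 (1.79%) of genes more positive in Tcon and by 0 of 32 of genes more positive in Treg. The sequence is from RefSeq on GRCm38.p6, plus strand, chr8:75109315-75109412, with the match in capitals, reading as its reverse complement.
Mcm5: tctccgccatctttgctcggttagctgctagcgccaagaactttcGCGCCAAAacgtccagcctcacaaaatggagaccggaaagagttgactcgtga

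The Treg only class (called in Treg and in the interaction, not in Tcon) held 37 genes lower in spleen Treg. Igfbp4, a secreted binding protein of insulin-like growth factors and a gene of naive T cells, was at 131, 134 and 141 CPM in lymph node Treg and 66.2, 91.3 and 78.5 CPM in spleen Treg, a fall of 0.79, with an interaction of -0.60 (standard error 0.10, adjusted p = 0.0072). Myb, a transcription factor of resting and stem-like lymphocytes, fell by 0.42 in Treg and measured 0.25 in Tcon (interaction -0.67, standard error 0.10, adjusted p = 0.0025). Tgfbr1, the type I receptor of TGF-beta, fell from 265–282 to 158–191 CPM in Treg, and in Tcon it ranged over 80.4–90.5 CPM in lymph node and 80.0–83.5 CPM in spleen (interaction -0.55, standard error 0.093, adjusted p = 0.0063). Il6ra, the interleukin-6 receptor chain, fell by 0.37 (interaction -0.36, standard error 0.081, adjusted p = 0.042). Of these 37 genes, 32 had a higher mean in Treg than in Tcon, against 58.9% of all genes tested, and 24 had an estimate above 0 in Tcon, against 49.4%. Il6ra lost its interaction call without Treg library 1, 2, 3, 4 or 5 or Tcon library 1, 2, 3, 4, 5 or 6 (-0.40 to -0.30).

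The Treg only class held 28 genes higher in spleen Treg. Itgam, the CD11b integrin chain, was at 1.42, 1.98 and 1.85 CPM in lymph node Treg and 4.96, 7.91 and 6.91 CPM in spleen Treg. In Tcon it was at 5.49, 5.88 and 5.44 CPM in lymph node and 5.81, 6.97 and 6.77 CPM in spleen, which overlapped. The Treg rise was 1.45 (standard error 0.098, adjusted p = 4.2e-07), and the interaction of 1.27 (standard error 0.14, adjusted p = 1.3e-04) was the highest among the named genes. Itgam is also a myeloid marker. Of the other myeloid markers Lyz2 and Mpeg1 rose and Ctss fell in spleen in both cell types, and the part of myeloid cells in the result was not tested. The summed level of the 10 listed myeloid markers was 314 to 343 CPM in lymph node Treg and 315 to 352 CPM in spleen Treg. Of the 10, 9 were higher in every spleen Treg library than in every lymph node one, as were 16.8% of all genes of that table. Any marker below 1 CPM in every lymph node library could be listed through spleen alone, which would fix its order. Epas1, the HIF-2 alpha gene, was at 2.22, 1.72 and 1.95 CPM in lymph node Treg and 5.32, 3.69 and 5.24 CPM in spleen Treg, against 22.9–25.0 and 19.7–27.4 CPM in Tcon (interaction 0.99, standard error 0.16, adjusted p = 0.0043). Nav2, a neuron navigator family gene, rose in Treg from 28.2–28.9 to 52.1–54.7 CPM, while in Tcon it lay at 9.21–14.9 and 10.4–12.5 CPM (interaction 0.82, standard error 0.13, adjusted p = 0.0039).

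Fosl2, an AP-1 transcription factor, was at 101, 139 and 151 CPM in lymph node Treg and 196, 219 and 195 CPM in spleen Treg, and at 359, 552 and 606 CPM in lymph node Tcon and 356, 580.1 and 609 CPM in spleen Tcon. The organs separated in Treg, whereas in Tcon the vehicle library of each organ was below its SAH libraries and the organs overlapped. The Treg rise was 0.66 (standard error 0.078, adjusted p = 8.4e-05) and the interaction was 0.63 (standard error 0.11, adjusted p = 0.0075). Gpr183, the oxysterol receptor that positions lymphocytes in spleen and lymph node, rose in both cell types but more in Treg, from 54.1–64.3 to 112–119.6 CPM, against 241–279 to 295–333 CPM in Tcon (differences 0.93 and 0.23, interaction 0.70, standard error 0.069, adjusted p = 6.1e-05). Rnf125, a ubiquitin ligase, and Abcb1b, a drug efflux pump, rose by 0.74 and 0.66 in Treg, with interactions of 0.74 (standard error 0.16, adjusted p = 0.036) and 0.67 (standard error 0.13, adjusted p = 0.022). Of the 28 genes, 21 had a higher mean in Tcon than in Treg, whereas 58.9% of all genes tested had a higher mean in Treg. Gpr183 was not called in Tcon without Tcon library 1 or 4 (0.20). Rnf125 lost its interaction call without Treg library 1, 2, 4 or 5 or Tcon library 3, 5 or 6 (0.55 to 0.79). Abcb1b lost its interaction call without Treg library 1, 3, 4 or 5 or Tcon library 3 (0.60 to 0.68).

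The Tcon only class (called in Tcon and in the interaction, not in Treg) held 3 genes lower in spleen Tcon. Ccr8, a skin-homing and Treg-associated chemokine receptor, was at 6.21, 7.90 and 8.73 CPM in lymph node Tcon and 3.02, 2.20 and 2.13 CPM in spleen Tcon, a fall of 1.32 (standard error 0.14, adjusted p = 3.4e-05). In Treg it was at 51.5, 61.7 and 57.3 and 54.0, 47.1 and 36.5 CPM, which overlapped, and its interaction was 1.0 (standard error 0.20, adjusted p = 0.023). Trim36, a ubiquitin ligase, and Prrg1, a vitamin K-dependent membrane protein, fell by 0.61 and 0.38, with interactions of 0.85 (standard error 0.15, adjusted p = 0.0093) and 0.71 (standard error 0.15, adjusted p = 0.026). Ccr8 lost its interaction call without Treg library 1, 3, 4 or 5 or Tcon library 3 or 5 (0.81 to 1.02). Prrg1 was not called in Tcon without Treg library 3 or 5 or Tcon library 1, 3, 4, 5 or 6 (-0.43 to -0.31). Trim36 lost its interaction call without Treg library 1 or 4 (0.73). Prrg1 lost its interaction call without Treg library 2, 3, 5 or 6 or Tcon library 1, 3, 4 or 5 (0.64 to 0.74).

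Among shared changes, the largest rises in spleen were those of genes that plasma cells, myeloid cells, antigen-presenting cells and red cells express. Jchain, the joining chain of secreted antibodies, was at 0.147, 0.849 and 0.625 CPM in lymph node Treg and 108, 72.1 and 119.9 CPM in spleen Treg, and at 0.373, 0.308 and 0.281 CPM in lymph node Tcon and 102, 36.7 and 38.9 CPM in spleen Tcon. It rose by 6.03 and 5.35, and the difference between cell types was called with the block alone (adjusted p = 0.011). Jchain was below 1 CPM in every lymph node library, so it was listed in both cell types through spleen alone, which fixed its order. Lyz2, lysozyme of macrophages, was at most 1.33 CPM in any lymph node library and at 21.6–52.2 CPM in spleen Treg and 18.1–22.7 CPM in spleen Tcon. Mpeg1, a macrophage pore-forming protein, Plac8, and the class II genes H2-Aa and H2-Eb1 rose by 2.25 to 2.70 in both cell types. Not every such marker rose. Of 8 measured myeloid markers 6 rose and 1 fell in Treg, against 6.76% and 5.04% of all genes. In Tcon 3 rose and 1 fell, against 4.12% and 2.12%. The 1 that fell was Ctss, by 0.47 in Treg and 0.26 in Tcon. Of 7 class II genes 4 rose and 1 fell in Treg, and 5 rose in Tcon. Hbbt1, a beta globin, and Slc4a1, the red cell anion exchanger, were highest in library 6 of both cell types: Slc4a1 was at 12.1, 8.41 and 109.7 CPM in spleen Treg and 4.21, 3.38 and 50.0 CPM in spleen Tcon, and was listed at 0 in the lymph node Tcon libraries. Its order in Tcon was thus fixed by the listing as well. Slc4a1 was not called in Tcon without Tcon library 1, 2, 3, 4 or 6 (2.24 to 3.90). In Tcon the call of Ctss held in 2 of the 12 fits without 1 library (-0.32 to -0.18 where it was lost). The interaction of Slc4a1 was called with the block alone (adjusted p = 0.77 without it and 1.3e-04 with it).

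Sums of B cell, class II and plasma cell markers were higher in every spleen library of both cell types. Myeloid sums overlapped between organs in both, and red cell sums overlapped in Tcon. Of 18 B cell markers, the 3 listed in Tcon came to 6.45 to 9.44 CPM in lymph node and 21.4 to 31.9 CPM in spleen. The 5 listed in Treg came to 60.6 to 74.9 and 84.3 to 103 CPM. The 7 class II genes came to 82.5 to 87.1 CPM in lymph node Tcon and 111 to 146 CPM in spleen Tcon, and to 156 to 166 and 185 to 238 CPM in Treg. Plasma cell markers, of which Jchain and Xbp1 were listed in both tables, came to 98.1 to 127 CPM in lymph node Tcon and 143 to 221 CPM in spleen Tcon, and to 83.6 to 101 and 173 to 217 CPM in Treg. Of 15 such markers 3 were listed in Treg and 2 in Tcon. In each cell type 1 of them, Jchain, was higher in every spleen library, against 16.8% and 10% of all genes of those tables. The plasma cell sums therefore do not show a rise of several markers. The 8 myeloid markers listed in Tcon came to 216 to 249 CPM in lymph node and 220 to 240 CPM in spleen. Of these, 3 were higher in every spleen library, against 10% of all genes of that table. The limit from the listing given above holds for this count too. Red cell markers lay at 244 to 276 CPM in lymph node Tcon and 225 to 319 CPM in spleen Tcon, and at 206 to 220 and 224 to 381 CPM in Treg, with library 6 highest in both. The part of other cells in these changes was not tested.

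Genes lower in spleen in both cell types were led by Apol9b and Apol9a, neighbouring apolipoprotein L genes induced by interferon, whose similar sequences may share reads. Apol9b was at 38.7, 45.2 and 43.4 CPM in lymph node Treg and 9.04, 8.81 and 8.02 CPM in spleen Treg. In Tcon it was at 5.39, 5.72 and 5.39 CPM in lymph node and 0.780, 0.743 and 0.773 CPM in spleen. The organs did not overlap, and it fell by 2.17 (standard error 0.086) in Treg and 1.88 (standard error 0.086) in Tcon, with an interaction of -0.29 (standard error 0.12, adjusted p = 0.34). Every spleen Tcon library was below 1 CPM, so Apol9b was listed in Tcon through lymph node alone, which fixed its order there. Apol9a fell by 2.17 and 1.79. Tspan9, a tetraspanin, went from 7.84–9.31 to 2.57–4.24 CPM in Treg and from 21.3–30.1 to 8.53–10.2 CPM in Tcon. Lad1, a filament-anchoring protein, fell by 0.98 and 1.09, and Spsb1, a ubiquitin ligase adaptor, by 0.87 and 1.02.

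Sequence before the RefSeq starts of Apol9a, Apol9b and the interferon-induced gene Ifit3 is shown because each holds the interferon-stimulated response element, searched on both strands as GAAA, any 2 bases and GAAA again. Among promoters of all genes tested 2.88% held these letters in the 250 bases before the start, against 12 of 93 promoters (12.9%), from 9 genes, of the shared genes lower in spleen and 17 of 31 (54.8%) of the interferon response list. It was held by 2 of 32 promoters (6.25%) of genes more positive in Treg and 2 of 112 (1.79%) of genes more positive in Tcon. Promoters were found for 7584 of the 9784 genes. Capitals mark the matches, which overlap in Apol9a and Apol9b and read as the reverse complement. The sequences are from RefSeq on GRCm38.p6: Apol9a at chr15:77411124-77411184 on the minus strand, Apol9b at chr15:77728990-77729050 and Ifit3 at chr19:34583328-34583461 on the plus strand. The Apol9a and Apol9b windows are identical at all 61 positions. In GENCODE M21 both genes start further upstream, so that 12 of the 16 capitals of each lie inside an annotated exon, whereas those of Ifit3 lie outside.
Apol9a: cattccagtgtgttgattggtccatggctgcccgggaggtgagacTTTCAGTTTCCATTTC
Apol9b: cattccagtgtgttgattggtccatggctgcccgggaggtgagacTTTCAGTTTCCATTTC
Ifit3: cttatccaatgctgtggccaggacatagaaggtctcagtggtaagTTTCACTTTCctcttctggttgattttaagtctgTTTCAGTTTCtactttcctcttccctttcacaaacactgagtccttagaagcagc

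Several interferon response genes fell in spleen in each cell type. Of 38 measured, 7 fell in Treg, against 5.04% of all genes, 10 fell in Tcon, against 2.12%, and 3 fell in both, against 1.06%: Usp18, Ifit2 and Ifi203. The estimate was below 0 in 31 of 38 in Treg, against 51.3% of all genes, and in 36 of 38 in Tcon, against 50.6%. Ifit3 was at 22.3, 44.3 and 27.3 CPM in lymph node Treg and 13.3, 15.9 and 9.31 CPM in spleen Treg, and at 21.9, 39.6 and 21.9 CPM in lymph node Tcon and 17.0, 16.8 and 8.34 CPM in spleen Tcon, where library 2 of both cell types was the highest. It fell in Treg by 1.19 (adjusted p = 0.016), and the Tcon difference of -0.95 was not called (adjusted p = 0.075). The 7 genes became 1, 0, 1 and 1 without Treg library 1, 2, 4 or 6, and the 10 became 5, 4, 5 and 2 without Tcon library 1, 2, 4 or 6. The 3 shared genes became 0 without library 1, 2, 4 or 6 of Treg or library 1 or 4 of Tcon, and 1 without Tcon library 2 or 6. No interaction was called in limma, with 3 at an unadjusted p below 0.05, and 5 were called with the block, all more positive in Treg, against 3.76% of all genes. Ifit3 was not called in Treg without Treg library 2 or 6 (-0.93 to -0.92).

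Abca1 and Abcg1, which export cholesterol, and Scd2, a fatty acid desaturase, all targets of the sterol-sensing LXR receptors, were lower in spleen in both cell types. Of 13 lipid export and LXR genes, 4 fell in Treg, against 5.04% of all genes, 4 fell in Tcon, against 2.12%, and these 3 fell in both, against 1.06%. The other called genes of the list were Srebf1, a regulator of fatty acid synthesis, which fell by 0.19 in Treg, Mylip, a ubiquitin ligase, which fell by 0.24 in Tcon, Apoe, an apolipoprotein, which rose by 0.61 in Treg, and Abca7, a lipid transporter, which rose by 0.22 in Tcon. The 1 riser in each cell type stood beside 6.76% and 4.12% of all genes. Abca1 was at 91.4, 132 and 123 CPM in lymph node Treg and 46.7, 59.3 and 54.9 CPM in spleen Treg, and at 61.3, 89.0 and 81.3 CPM in lymph node Tcon and 37.0, 50.8 and 42.6 CPM in spleen Tcon. It fell by 1.08 in Treg and 0.81 in Tcon, and the difference was called with the block alone (-0.27, adjusted p = 0.26 without it and 0.0091 with it). Scd2 fell by 1.08 and 0.97, and Abcg1 by 0.65 and 0.67. Of the 23 cholesterol synthesis genes, 12 rose in Treg, against 6.76% of all genes, and 9 in Tcon, against 4.12%, and those 9 rose in both, against 2.07%. Idi1, the isomerase of the isoprenoid steps of the pathway, was at 15.8, 20.1 and 21.1 CPM in lymph node Treg and 25.8, 30.6 and 32.6 CPM in spleen Treg, and at 29.1, 29.5 and 36.6 CPM in lymph node Tcon and 34.8, 41.9 and 48.0 CPM in spleen Tcon. The organs did not overlap in Treg and overlapped in Tcon. It rose by 0.62 (standard error 0.081, adjusted p = 1.6e-04) in Treg and 0.38 (standard error 0.081, adjusted p = 0.011) in Tcon. Sqle, the squalene epoxidase, rose by 0.56 and 0.40. The Treg count of 12 became 7 without Treg library 2, and the Tcon count of 9 became 5, 4, 4, 5 and 2 without Tcon library 1, 2, 3, 4 or 6. The 9 shared genes became those same numbers without those Tcon libraries, and 5 without Treg library 2. Srebf1 was not called in Treg without Treg library 1, 2, 4 or 5 (-0.16 to -0.15). Mylip was not called in Tcon without Tcon library 1, 3, 4, 5 or 6 (-0.29 to -0.20). Abca7 was not called in Tcon without Treg library 1, 2, 3 or 4 or Tcon library 1, 2, 3, 4, 5 or 6 (0.19 to 0.24). Idi1 was not called in Tcon without Tcon library 6 (0.30). Sqle was not called in Tcon without Tcon library 2, 3 or 6 (0.29 to 0.41).

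Several TGF-beta response genes fell in spleen in both cell types. Of 19 genes of TGF-beta and retinoic acid response, 9 fell in Treg, against 5.04% of all genes, and 5 fell in Tcon, against 2.12%. The 1 that rose in each was near the 6.76% and 4.12% of all genes. The 5 were lower in both, against 1.06%: Skil, Ski, Smurf2, Lrig1 and Pmepa1 (3 without Tcon library 5). Skil, a repressor of TGF-beta signaling that the pathway itself induces, was at 521, 497 and 569 CPM in lymph node Treg and 407, 378 and 328 CPM in spleen Treg, and at 424, 468 and 533 CPM in lymph node Tcon and 317, 363 and 317 CPM in spleen Tcon. It fell by 0.51 in Treg and 0.51 in Tcon, without overlap, and its interaction interval ran from -0.25 to 0.24. Pmepa1, another induced inhibitor of the pathway, fell by 0.68 and 0.50. Smad3, a transducer of the pathway, rose in Treg by 0.51 with an interaction of 0.38 (standard error 0.086, adjusted p = 0.045). With the block, interactions were called in 2 of the list more positive in Treg and 6 more positive in Tcon, against 3.76% and 3.42% of all genes. Without the block they were 1 and 1, against 0.368% and 1.09%. Smad3 lost its interaction call without Treg library 1, 2, 3, 4, 5 or 6 or Tcon library 1, 3, 4 or 5 (0.31 to 0.41).

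Dtx1, Dtx4, Klf3 and Klf6 rose in spleen in both cell types. Of 20 Notch pathway genes, 2 rose and 2 fell in Treg, close to 6.76% and 5.04% of all genes (4 rose without Tcon library 2), and 4 rose in Tcon, against 4.12% (2 without Tcon library 1 or 4). Of these only Dtx1 and Dtx4 rose in both, against 2.07% of all genes. Dtx1, a Notch target and E3 ligase, was at 92.7, 99.2 and 91.7 CPM in lymph node Treg and 196, 206 and 215 CPM in spleen Treg, and at 94.8, 91.0 and 94.0 CPM in lymph node Tcon and 173, 174 and 175 CPM in spleen Tcon. The libraries of an organ lay close together, and it rose by 1.11 (standard error 0.046, adjusted p = 2.1e-09) in Treg and 0.89 (standard error 0.046, adjusted p = 1.1e-08) in Tcon, a difference between cell types called with the block alone (0.22, adjusted p = 0.13 without it and 0.019 with it). Dtx4, a relative, rose by 0.76 and 1.05. Of 15 KLF, FOXO and egress genes, 5 rose in Treg, against 6.76% (2, 3 and 3 without Treg library 1, 2 or 4), and 2 in Tcon, against 4.12% (1 without Tcon library 1 or 4, and 4 without Treg library 6), and these 2 rose in both. Klf3, a repressor of the Kruppel-like family, rose by 0.55 in Treg and 0.54 in Tcon, with an interaction interval from -0.24 to 0.27. Klf6, of the same family, rose by 0.73 and 0.39, and this difference was called with the block alone (adjusted p = 0.0041). Klf2, which drives genes of recirculation, rose in Treg by 0.51 and measured 0.18 in Tcon, a difference also called with the block alone (adjusted p = 0.36 and 0.0099). Klf6 was not called in Tcon without Tcon library 1 or 4 (0.35). Klf2 was not called in Treg without Treg library 1 (0.48).

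Of 35 genes of the immediate-early and antigen receptor list, 14 rose in Treg, against 6.76% of all genes (7, 8 and 7 without Treg library 1, 2 or 4), and 6 in Tcon, against 4.12% (3 without Tcon library 6). Interactions were called for Fosl2 and for Dusp5, a MAP kinase phosphatase, against 0.368% of all genes. That of Dusp5 was 0.30 (standard error 0.07, adjusted p = 0.0497). These 2 became 5 without Tcon library 2 and 1 without any 1 of the other 11 libraries. With the block 8 were more positive in Treg and 4 in Tcon, against 3.76% and 3.42%. Dusp5 lost its interaction call without any 1 of the 12 libraries (0.24 to 0.34).

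Atf3, a stress-induced transcription factor, was at 9.09, 14.6 and 15.0 CPM in lymph node Treg and 36.7, 43.9 and 39.7 CPM in spleen Treg, and at 4.32, 7.87 and 6.64 CPM in lymph node Tcon and 16.4, 17.3 and 15.9 CPM in spleen Tcon, rising by 1.59 and 1.30. Among 21 genes of heat shock and the integrated stress response, 10 rose in Treg, against 6.76% of all genes, and 7 in Tcon, against 4.12%, all 7 in both, against 2.07% (4 without Tcon library 6). Hspa1a and Hspa1b, near-identical inducible HSP70 genes whose reads cannot be told apart with certainty, rose in both. Hspa1a was at 21.5, 78.6 and 63.4 CPM in lymph node Treg and 62.1, 233 and 229 CPM in spleen Treg, and at 29.3, 86.1 and 165 CPM in lymph node Tcon and 40.2, 267 and 306 CPM in spleen Tcon. In each organ and cell type the vehicle library was the lowest, and the organs overlapped, while within vehicle and within SAH every spleen library was higher. The rises were 1.63 and 0.99.

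**Figure D5:**
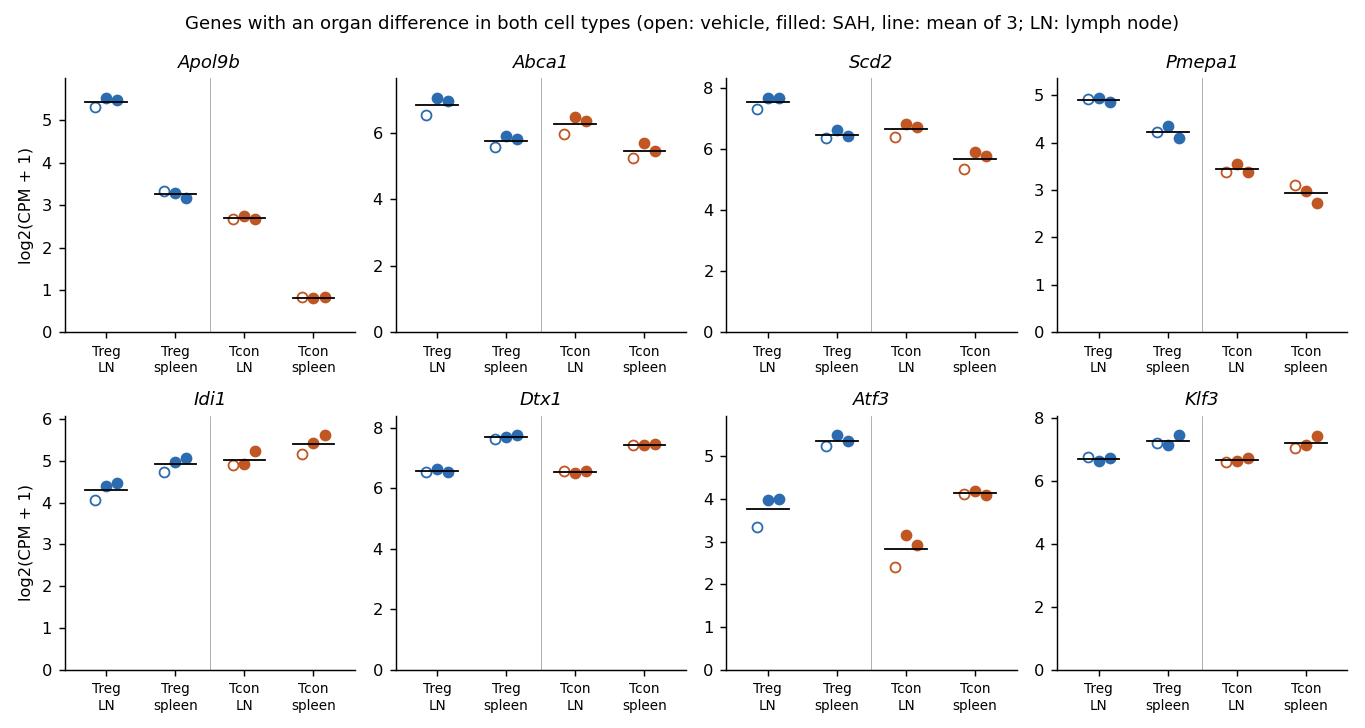
Values of 8 genes in log2(CPM + 1) (y axis) in each library of Treg (blue) and Tcon (orange) by organ (x axis), open for vehicle, filled for SAH, with the mean of 3 as a line. Apol9b, Abca1, Scd2 and Pmepa1 have lower means and Idi1, Dtx1, Atf3 and Klf3 higher means in spleen in both cell types, with the Tcon libraries of Idi1 overlapping between organs.

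Ccr7 and S1pr1, which act in entry into and exit from lymph nodes, passed no test. Ccr7, the lymph node homing receptor, ranged over 207–344 CPM in lymph node Treg and 224–287 CPM in spleen Treg, and over 587–861 and 637–765 CPM in Tcon. Its organ differences were -0.043 and -0.024, and the 95% interval of the interaction ran from -0.47 to 0.43. S1pr1, the receptor for exit into lymph, measured 0.18 in Treg and 0.082 in Tcon. Cd4, the coreceptor, measured 0.061 and -0.012.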

How the data were processed

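RNA was taken up in Trizol, purified on Direct-zol columns and made into TruSeq stranded mRNA libraries, per the labels' protocols. TopHat, Bowtie, edgeR and the build mm10 are named, without versions, in the submitters' processing notes. The authors deposited 1 table for Treg and 1 for Tcon with CPM per library, a scaled signal whose column totals ran from 971928 to 1021433. Both deposited tables list genes by symbol with at least 1 CPM in at least 3 libraries. They also hold the authors' log2 fold change and log2 CPM, a likelihood ratio score and a p-value for SAH against vehicle, which were not used here.

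Symbols listed in both tables (9784) were joined, and 95.9% matched GENCODE M21 on GRCm38. Of these, 136 repeated the values of another symbol. Values were taken as log2(CPM + 1). Limma 3.58.1 in R 4.3.3 fitted all 12 libraries with cell type, organ within cell type and treatment within cell type (6 coefficients, 6 residual degrees of freedom), with an intensity trend and Benjamini-Hochberg adjustment over all genes. The script was tested on simulated data. No count test was run, because reads could not be recovered from every value, so read depth is an estimate and limits the low values.

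The labels give Treg and Tcon libraries the same numbers 1 to 6 without saying what a number shares. Libraries of a number deviated together, with correlations of 0.286 to 0.537, and each correlated best with its own number, so a fit with the number as a block (3 residual degrees of freedom) stands beside results whose call it changed. Alternatives were other pseudocounts, a filter on mean CPM, 2 rescalings, no trend, no treatment term, SAH libraries only and leaving out libraries.

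Genes and gene lists were chosen with earlier results of these data known. Named genes were the 12 highest and 12 lowest interactions and the 8 highest and 8 lowest shared changes reaching 5 CPM, 10 opposite changes, called list members and a few fixed genes. Some of these are not reported here. Motifs were searched in RefSeq promoters, found for 7584 genes.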

Additional observations from a re-analysis of the deposited data

Results flagged for a closer look

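In 11 genes the organ difference went in opposite directions in Treg and Tcon, both past the limma test, and the difference between the 2 was itself tested as the interaction. On the log2(CPM + 1) scale, Treg minus Tcon, it was -3.69 for Nkg7, -2.40 for Socs2, -1.54 for Il17rb, -0.89 for Ncf1, -0.87 for Il2ra, -0.87 for Ston1, -0.86 for Endod1 and -0.54 for Bcl2, all lower in spleen Treg and higher in spleen Tcon. It was 0.94 for Hpgds, 0.63 for Hs3st3b1 and 0.56 for Amd1, all higher in spleen Treg and lower in spleen Tcon. Bcl2, an inhibitor of apoptosis, was outside the rule for named genes and is given to complete the class. No group was large enough for a check of single outlying libraries.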

How the results depend on the processing

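Directions held: among 375 calls of named genes, 0 reversed under any alternative, and 232 held in all 12 fits without 1 library. Of those 12 fits, the ones without library 1 and without library 4 of a cell type share their organ estimate for it. Counts were less stable. With the replicate block, which treats library numbers as pairs, 703 interactions were called in place of 143, and all 59 called interactions of named genes held. A mean of at least 5 CPM in both tables left 83 interactions, 6 opposite, 43 Treg only and 23 Tcon only genes. A pseudocount of 5 left 29 Tcon only genes, and a fit without treatment left 6 opposite genes. The SAH libraries alone gave 67 interactions, 508 genes in Treg, 283 in Tcon, 134 shared, 4 opposite, 23 Treg only and 30 Tcon only. Leaving out a library, or both libraries of a number, gave 62 to 287 interactions, 504 to 1326 genes in Treg, 283 to 712 in Tcon, 132 to 301 shared, 4 to 31 opposite, 20 to 119 Treg only and 25 to 94 Tcon only, and, among genes listed in 1 table, 123 to 216 in Treg and 15 to 20 in Tcon. The cause of these shifts was not tested, beside the fewer libraries or genes in each fit. The Treg and Tcon tables were scaled separately, vehicle had 1 library per organ and cell type, and a lone vehicle library was assumed to vary like the others. Genes near 1 CPM rest on few reads.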

Other observations

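Genes listed in 1 table only could not enter the comparison of cell types. In limma on the Treg table alone 196 of the 621 genes listed only there were called (117 higher, 79 lower in spleen), 31.6% against 14.7% of that whole table. On the Tcon table it was 20 of 102 (17 higher, 3 lower), 19.6% against 4.73%. Listed genes have at least 1 CPM in at least 3 libraries, and each organ had 3. A low gene could thus be listed through the organ where it was high, so these shares may follow in part from the listing. The genes named next, apart from Itgae, were chosen after their values were seen. Itgae, the CD103 integrin chain that binds epithelial cadherin, was at 141, 213 and 228 CPM in lymph node Treg and 52.5, 68.1 and 77.3 CPM in spleen Treg, a fall of 1.53 without overlap. Gcnt1, a glycosyltransferase for selectin ligands, fell by 1.88, Ccr6, a mucosal homing receptor, by 1.09 and Havcr2, the TIM-3 gene, by 0.89. Klrg1, a receptor of late effector Treg, rose by 2.07 in spleen Treg, Areg, a tissue repair factor, by 0.86, Il10, a suppressive cytokine, by 0.67 and Il1rl1, the interleukin-33 receptor, by 0.57. The myeloid genes Csf1r and Tyrobp, listed in Treg only, rose by 2.70 and 1.82. In the Tcon table Xcl1, a chemokine of cytotoxic cells, rose by 3.07 in spleen, Zbtb16, the innate-like T cell factor PLZF, by 2.79, and the natural killer receptors Klrk1 and Klrc1 by 2.63 and 2.14. Without Treg library 2 or 4 the 196 genes became 123 and 128.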
